A study of Mus musculus with 6 samples.

Results

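The Notch receptors, their ligands and the HEY target genes were examined in the aorta of eNOS-deficient mice and of normal, wild-type mice of matched age. The enzyme eNOS, the product of Nos3, makes nitric oxide in the endothelium. The 10 genes are the receptors Notch1, Notch2, Notch3 and Notch4, the ligands Jag1, Jag2 and Dll4, and the transcriptional repressors Hey1, Hey2 and Heyl. They were chosen by name, out of 18008 genes tested, as probe sets that the platform annotation assigns to exactly 1 gene symbol. Each was read by 1 such probe set, so no second probe set could serve as a check. All 10 were measured, and all 10 lay above the brightness level under which genes were left out of the tests. The eNOS-deficient group held 3 aorta samples, numbered 11, 15 and 19 in their titles, and the wild-type group held 3, numbered 2, 3 and 5. Total RNA of each sample (300 ng for labelling) was hybridised to its own Affymetrix array. Allele, strain, sex and age in numbers are not in the sources used here, nor is whether each sample is a separate animal, and the p-values cover the spread between these 6 samples alone.

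Notch signalling passes between touching cells. A ligand of the Delta-like or Jagged family on the sending cell binds a Notch receptor on its neighbour, proteases of the ADAM family and then gamma-secretase cut the receptor, and the freed intracellular domain joins the DNA-binding protein RBPJ and a Mastermind co-activator to switch on genes of the HES and HEY families. In arteries Dll4, Notch1 and Notch4 are known from endothelium, where the pathway is part of arterial identity, while Notch3 and Heyl are known from smooth muscle and pericytes. Jag1 serves in both layers and takes part in signalling from endothelium to the muscle wall.

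RefSeq promoter windows (build GRCm38.p6, 250 bases before to 50 after the gene start) were found for 8 of the 10 genes, the entries for Hey1 and Heyl being the exceptions. Both strands were searched for GTGGGAA, the core that RBPJ prefers, for CACGTG, an E-box that HEY proteins can bind, and for GGGCGG, the GC box of Sp-family factors. Among the 8 windows, GTGGGAA occurred in that of Hey2, at 2 places that do not overlap each other, and in no other. Of 32851 promoter windows of the same length, 6.38% held it at least once and 0.256% at 2 or more places. The Hey2 window, on the minus strand at chr10:30842774-30843033, is shown because Hey2 is the HEY target with a window, and its capitals mark the core on either strand, the first starting 207 bases before the gene start and the second 4 bases before it and running across it.

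Hey2: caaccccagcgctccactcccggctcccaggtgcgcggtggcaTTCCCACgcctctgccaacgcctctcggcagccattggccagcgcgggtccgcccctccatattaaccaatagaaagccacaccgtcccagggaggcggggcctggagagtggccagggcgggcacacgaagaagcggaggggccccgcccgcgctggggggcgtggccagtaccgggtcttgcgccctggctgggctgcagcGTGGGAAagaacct

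The windows of Notch4 (plus strand, chr17:34564045-34564294), Jag2 (minus strand, chr12:112929496-112929745) and Dll4 (plus strand, chr2:119325534-119325783) are shown because these genes had the receptor and ligand values that lay farthest apart between the genotypes, and their capitals mark GGGCGG on either strand. Jag2 held 5 GC boxes, of which a pair overlap each other, Dll4 held 2 and Notch4 held 0. Among the other windows, Notch2 held 7, Notch1 5, Notch3 4, Hey2 3 and Jag1 0. Of all windows, 35.7% held at least 1 GC box and 19.5% held 2 or more. None of the windows of Notch4, Jag2 and Dll4 held CACGTG, which 7.15% of all windows did. The printed stretch of Jag2 was 87.2% G and C, that of Dll4 65.6% and that of Notch4 58.4%. A match describes letters in this window and is no measured binding site.

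Notch4: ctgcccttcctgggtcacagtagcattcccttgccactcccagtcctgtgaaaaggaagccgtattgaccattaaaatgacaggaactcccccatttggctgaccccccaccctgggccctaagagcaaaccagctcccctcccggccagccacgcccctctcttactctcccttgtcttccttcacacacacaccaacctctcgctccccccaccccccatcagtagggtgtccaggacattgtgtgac

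Jag2: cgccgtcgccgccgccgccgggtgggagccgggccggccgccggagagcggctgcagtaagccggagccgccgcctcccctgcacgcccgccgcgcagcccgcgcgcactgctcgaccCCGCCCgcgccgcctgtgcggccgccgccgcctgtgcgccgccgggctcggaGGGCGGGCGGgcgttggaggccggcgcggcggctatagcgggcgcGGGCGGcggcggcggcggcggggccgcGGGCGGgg

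Dll4: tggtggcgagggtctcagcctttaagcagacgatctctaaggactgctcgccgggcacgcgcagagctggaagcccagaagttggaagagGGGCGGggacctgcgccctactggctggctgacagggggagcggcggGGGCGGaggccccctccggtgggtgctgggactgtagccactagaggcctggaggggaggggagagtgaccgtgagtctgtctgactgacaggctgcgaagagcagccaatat

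Expression was read as the log2 signal that RMA (background correction, quantile normalization and summary over a probe set's probes) gives, so a difference of 1 is a 2-fold difference in signal. A signal says nothing about 1 gene's level against another's, and only arrays were compared within a gene. Nos3 itself measured 7.13, 7.39 and 7.27 in eNOS-deficient aorta, against 7.99, 7.88 and 7.36 in wild type, and did not pass the test (limma adjusted p = 0.399). Wild type 5 stood apart from the other wild-type arrays. On the eNOS-deficient arrays 18 squamous epithelium markers averaged 5.27 to 5.47, against 8.18 on wild type 5 and 6.13 and 5.58 on its group mates. Krt14, a keratin of basal epithelium, stood at 5.04 to 5.40 on 5 arrays and at 7.38 on wild type 5. The mean of the 18 markers was thus lower in eNOS-deficient aorta without overlap. Of these genes 5 were wholly lower, where 6.47% of all genes were. Krt4 among them stood at 9.64, 6.18 and 13.3 on wild type 2, 3 and 5, against 4.41 to 5.16 on eNOS-deficient arrays. The mean of 20 endothelial markers was 7.80, 8.08 and 8.20 on eNOS-deficient 11, 15 and 19, against 8.30, 8.40 and 7.62 on wild type 2, 3 and 5. These markers did not move together: 12 had a negative difference between the genotypes and 8 a positive one. They ran from -0.58 for Egfl7 to 0.42 for Cldn5. Their mean differed by -0.075 between the genotypes, with overlap. A change in the share of endothelial cells and a change in RNA per endothelial cell cannot be told apart in whole aorta. Between the genotypes the means of several other lists did not overlap either. They were higher in eNOS-deficient aorta for 12 macrophage markers (8.73 ± 0.21, against 7.90 ± 0.23, SD, n = 3 each), 11 fibroblast markers (9.25 ± 0.065, against 8.67 ± 0.31), 15 smooth muscle markers (9.47 ± 0.15, against 8.99 ± 0.075), 6 pericyte markers (9.24 ± 0.034, against 8.96 ± 0.25) and 3 Y-linked genes (6.82 ± 1.84, against 3.55 ± 0.084). The Y-linked mean was 7.76 on eNOS-deficient 11 and 4.71 on 15, the lowest of its genotype and the lowest array for Notch4 and Jag2. Sex-linked expression and genotype cannot be told apart in these arrays. Among the eNOS-deficient arrays 11 stood apart, with a mean of 6.13 over 10 lymphocyte markers (7.92 to 8.83 on the other arrays) and of 11.52 over 12 skeletal muscle markers (8.95 to 10.89), and it was the lowest array for Notch1 and Notch2. The part of these differences in the results below was not tested, except where a value relative to a marker list is given. The differences of the 10 genes are therefore given with and without wild type 5. They are also given without other arrays where that moves a value by over 1.5 times (for the small differences of Notch2, Jag1, Hey2 and Heyl as ranges, in the closing section). Differences relative to a marker list are given with all arrays only. Of the other pathway genes, Rbpj and Nrarp are given without wild type 5. The rest are given with all arrays, with ranges for some in the closing section.

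None of the 10 genes passed the test over all genes (limma, Benjamini-Hochberg over 18008 genes at 0.05; smallest adjusted p = 0.325), where 0.0278% of all genes did. At an unadjusted p under 0.05, Notch4 and Jag2 were lower in eNOS-deficient aorta, 2 of 10, and none was higher, where 3.72% of all genes were lower and 7.86% higher. At the same 2 genes the eNOS-deficient arrays lay wholly below the wild-type arrays, which held for 6.47% of all genes. With each array centred on its median both overlapped, so 0 of 10 were lower in this way (3.75% of all genes), and after repeated quantile normalization Notch1, Notch4 and Jag2 were, 3 of 10 (5.17% of all genes). The count at an unadjusted p under 0.05 also turned on single arrays, being 0 without eNOS-deficient 15, 1 without wild type 2, 1 without wild type 3 and 4 without wild type 5. Of all 18008 genes 428, 559, 725 and 1067 were lower in those settings, in the same order. All 4 receptors and all 3 ligands had a negative difference and all 3 HEY genes a positive one, where 43.4% of all genes had a negative difference. After median centring the small differences of Notch2 and Jag1 were just positive, at 0.0022 and 0.011, and after repeated quantile normalization that of Hey2 was negative, at -0.019. The median difference was -0.32 over the 7 receptors and ligands and 0.056 over the 3 HEY genes, against 0.036 over all genes tested.

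**Figure D1:**
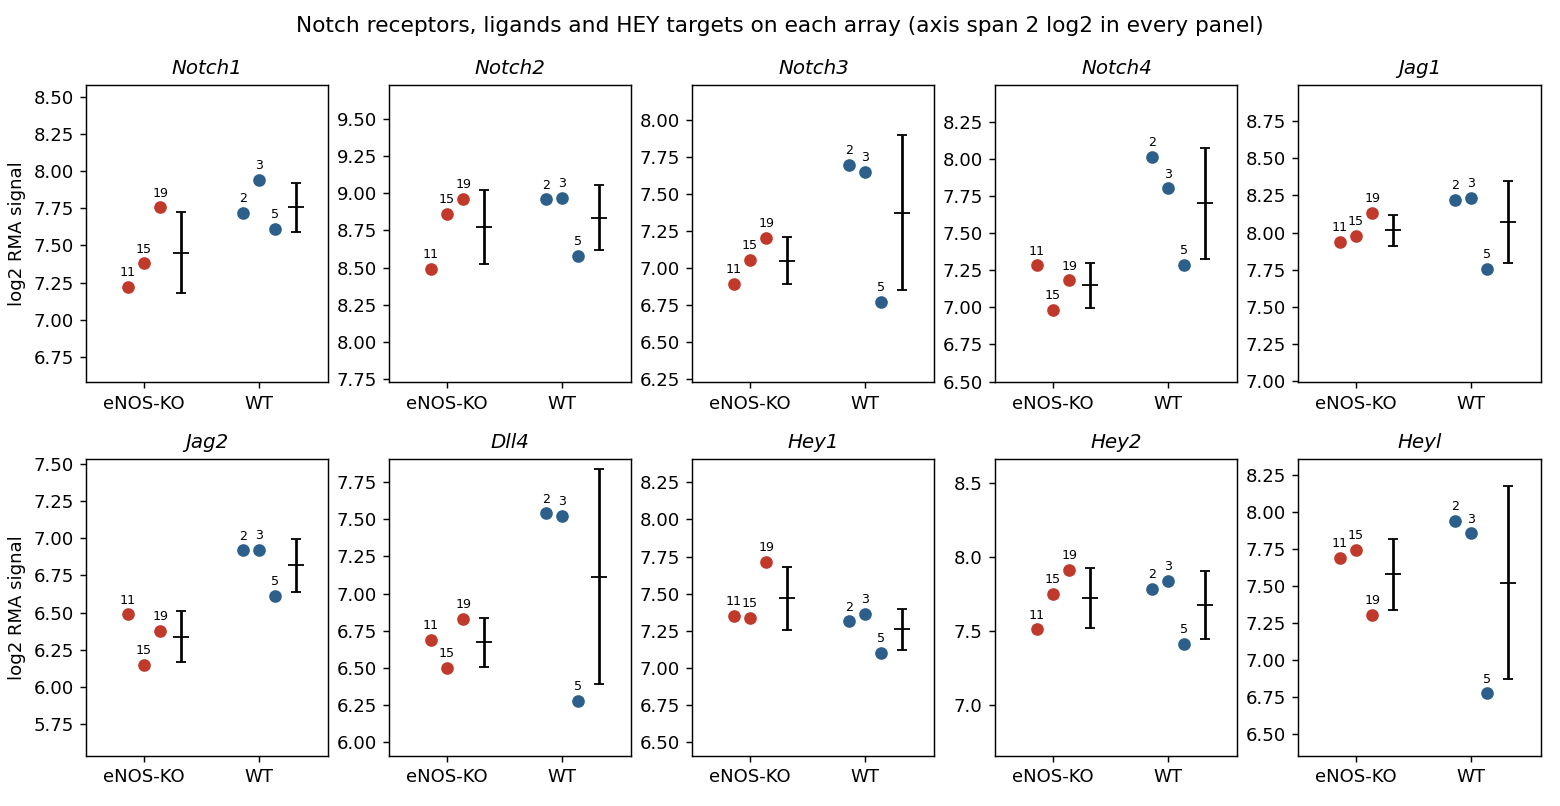
Log2 RMA signal (vertical axis) of each of the 10 genes on the 3 eNOS-deficient arrays (red) and the 3 wild-type arrays (blue), with sample numbers, and the mean and SD of each group in black. Wild type 5 was the lowest of the 6 arrays for 6 of the 10 genes, and the axes span the same number of log2 units in every panel.

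Notch4, the receptor best known from endothelium, had the receptors' largest difference. It measured 7.28, 6.98 and 7.18 in eNOS-deficient aorta 11, 15 and 19, against 8.01, 7.80 and 7.28 in wild type 2, 3 and 5. The groups did not overlap, but the gap was 0.0018 log2, since wild type 5 lay beside eNOS-deficient 11. The means were 7.15 ± 0.15 and 7.70 ± 0.38 (SD, n = 3 each), a difference of -0.55 (standard error 0.20, limma 95% interval -1.03 to -0.077, unadjusted p = 0.0283, adjusted p = 0.380). The two-sided exact permutation p was 0.1, the smallest that 3 arrays against 3 allow. Without wild type 5 the difference was -0.76 (unadjusted p = 0.00158, adjusted p = 0.136), and without wild type 2 it was -0.39 (unadjusted p = 0.0965 in limma). The unadjusted p was also over 0.05 without wild type 3 (0.0827), eNOS-deficient 15 (0.0925) and eNOS-deficient 19 (0.0568).

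Notch1, the receptor through which Dll4 restrains sprouting in endothelium, measured 7.22, 7.38 and 7.76 in eNOS-deficient aorta, against 7.72, 7.94 and 7.61 in wild type. The groups overlapped through eNOS-deficient 19, which stood above 2 of the wild-type arrays. Its difference was -0.30 (interval -0.71 to 0.099, limma adjusted p = 0.531). Unlike for the other receptors, wild type 5 lay close to its group, at -0.22 from the mean of wild type 2 and 3, and leaving it out gave -0.38. The difference was -0.19 without eNOS-deficient 11, the lowest array, and -0.46 without eNOS-deficient 19 (unadjusted p = 0.0266, adjusted p = 0.511).

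Notch3, the receptor of smooth muscle cells and pericytes that is mutated in the small-vessel disease CADASIL, measured 6.89, 7.06 and 7.20 in eNOS-deficient aorta, against 7.70, 7.65 and 6.77 in wild type. Wild type 5 was the lowest array of all 6, and the other wild-type arrays lay above every eNOS-deficient array. The difference was -0.32 (interval -0.92 to 0.28, limma adjusted p = 0.669). It was -0.62 without wild type 5 (unadjusted p = 0.00303, adjusted p = 0.148), but -0.16 without wild type 2 and -0.18 without wild type 3. Notch2, the receptor that acts beside Notch3 in smooth muscle, measured 8.49, 8.86 and 8.96 in eNOS-deficient aorta, against 8.96, 8.97 and 8.58 in wild type. Both groups spanned nearly the same range, and the difference was -0.063 (interval -0.48 to 0.35), or -0.19 without wild type 5.

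Jag2, a Jagged ligand found in arterial endothelium and also in squamous epithelium, measured 6.49, 6.15 and 6.38 in eNOS-deficient aorta, against 6.92, 6.92 and 6.61 in wild type. Every eNOS-deficient array lay below every wild-type array, with a gap of 0.13 log2. The means were 6.34 ± 0.17 and 6.82 ± 0.18 (SD, n = 3 each), and the difference of -0.48 (standard error 0.15, interval -0.83 to -0.13) had the smallest p of the 10 genes (limma unadjusted p = 0.0137, adjusted p = 0.325, exact permutation p = 0.1). Without wild type 5, the array with the high epithelium markers, the difference was -0.58 (unadjusted p = 0.00501, adjusted p = 0.166). Without eNOS-deficient 15, the lowest array, it was -0.39 (unadjusted p = 0.0575 in limma). After median centring the lowest wild-type minus the highest eNOS-deficient value was -0.0075, a slight overlap.

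Dll4, the Delta-like ligand of arterial endothelial cells and sprouting tips, was the most variable of the 10 genes over the 6 arrays (SD 0.53 log2). It measured 6.69, 6.50 and 6.83 in eNOS-deficient aorta, against 7.54, 7.52 and 6.28 in wild type. The arrays of wild type 2 and 3 lay well above all eNOS-deficient arrays, and wild type 5 lay below them all. With all arrays the difference was -0.44 (interval -1.23 to 0.34, limma adjusted p = 0.653). Without wild type 5 it was -0.86 (interval -1.19 to -0.53, unadjusted p = 0.000599, adjusted p = 0.121), the largest of the 10 genes in that comparison. Without wild type 2 it was -0.23, and without wild type 3 it was -0.24. Jag1, the Jagged ligand that endothelium presents to smooth muscle, measured 7.94, 7.98 and 8.13 in eNOS-deficient aorta, against 8.22, 8.24 and 7.75 in wild type. Its difference was -0.055 (interval -0.44 to 0.33), or -0.21 without wild type 5, when the groups no longer overlapped.

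The HEY genes, which encode basic helix-loop-helix repressors that Notch switches on in the vessel wall, had small positive differences with all arrays. Hey1 measured 7.35, 7.34 and 7.72 in eNOS-deficient aorta, against 7.31, 7.36 and 7.10 in wild type. The groups overlapped, eNOS-deficient 19 being the highest and wild type 5 the lowest array. Its difference was 0.21 (interval -0.14 to 0.56, limma adjusted p = 0.638), or 0.13 without wild type 5 and 0.085 without eNOS-deficient 19. After median centring the groups of Hey1 no longer overlapped, eNOS-deficient aorta being higher, which held for 18.2% of all genes in that setting.

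Hey2, which acts with Hey1 in arterial development, measured 7.51, 7.75 and 7.91 in eNOS-deficient aorta, against 7.78, 7.84 and 7.41 in wild type. Its groups overlapped widely, and the difference was 0.047 (interval -0.35 to 0.44), or -0.085 without wild type 5. Heyl, a Notch3 target in smooth muscle, measured 7.69, 7.74 and 7.31 in eNOS-deficient aorta, against 7.94, 7.85 and 6.78 in wild type. The SD among wild-type arrays, 0.65, was larger than the genotype difference, wild type 5 lying at -1.12 from the mean of the other wild-type arrays. The difference was 0.056 (interval -0.68 to 0.79) with all arrays and -0.32 (interval -0.71 to 0.078) without wild type 5.

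**Figure D2:**
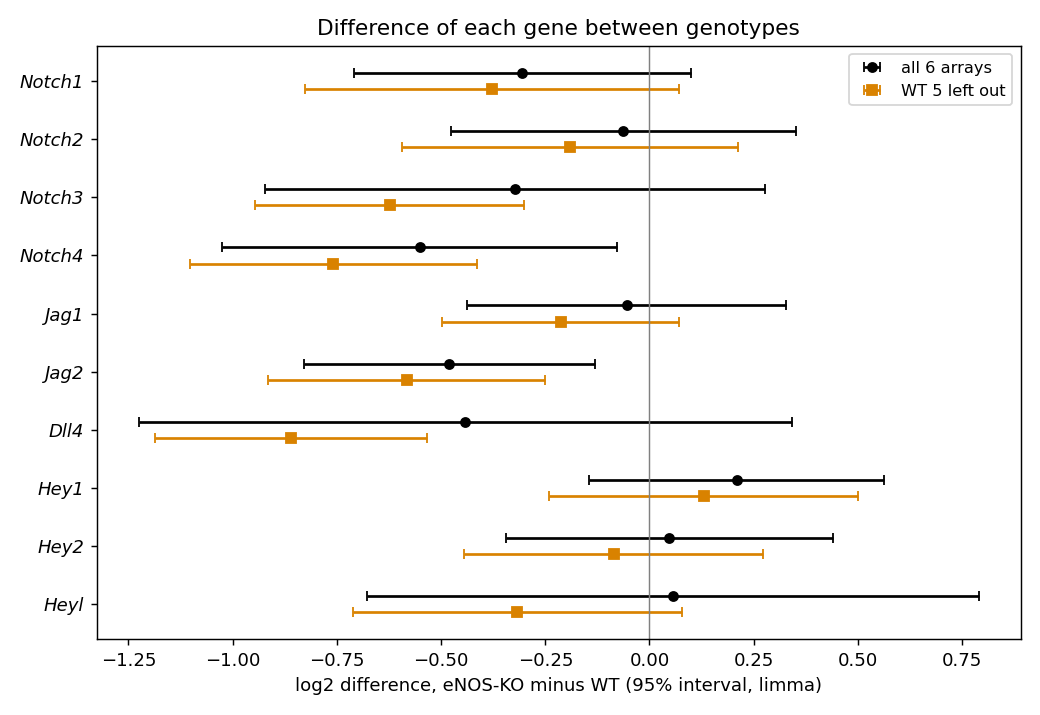
Log2 difference, eNOS-deficient minus wild type (horizontal axis), with limma 95% intervals for each of the 10 genes, with all 6 arrays (black circles) and with wild type 5 left out (orange squares). Dll4 moved most, at -0.44 with all arrays and -0.86 without wild type 5, while Hey1 was at 0.21 and 0.13.

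The HEY genes were also set against the receptors and ligands within each array, a comparison chosen after the values were seen and given as a description. The mean of the 3 HEY genes minus the mean of the 7 receptors and ligands was 0.23, 0.34 and 0.15 on eNOS-deficient 11, 15 and 19, against -0.19, -0.18 and -0.17 on wild type 2, 3 and 5. The sign of each value depends on the probes, and what can be compared is the shift of 0.42 log2 between genotypes. Most of it lies on the side of the receptors and ligands: their mean differed by -0.32, the HEY mean by 0.10 with overlap, and the median of all 18008 genes was shifted by 0.35 against the same receptor and ligand mean. Wild type 5, which was low for both kinds of gene, lay beside the other wild-type arrays here: its receptor and ligand mean lay at -0.60, and its HEY mean at -0.58, from the mean of wild type 2 and 3. A shift common to all genes of an array cancels in this value, so median centring leaves it as it is, and after repeated quantile normalization it was 0.41. Taken singly against the same mean, Hey1 was shifted by 0.53 and Hey2 by 0.36, each without overlap of the groups, and Heyl by 0.37 with overlap, since eNOS-deficient 19 lay at -0.19, below wild type 2 at 0.071. Hey2 and Heyl thus stood near the median gene, and 26.3% of all genes were higher without overlap on this scale.

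**Figure D3:**
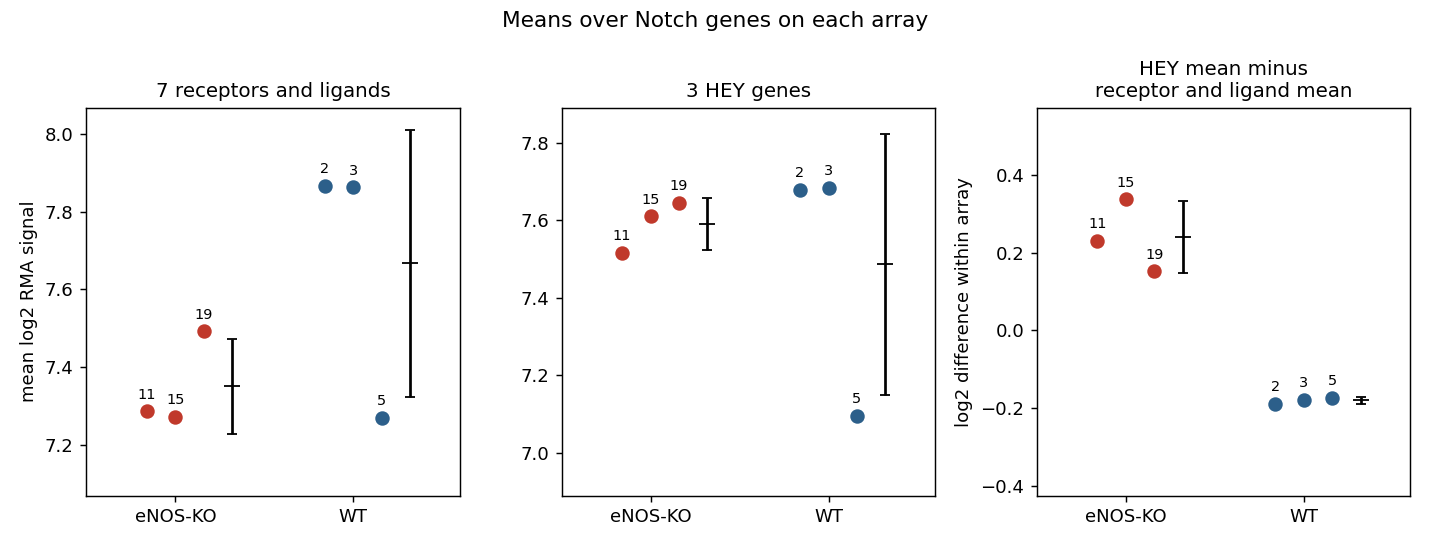
Mean log2 RMA signal per array over the 7 receptors and ligands (left) and over the 3 HEY genes (middle), and the difference of these means within each array (right), for eNOS-deficient (red) and wild-type (blue) samples, with group means and SDs in black. The within-array difference lay between 0.15 and 0.34 on the eNOS-deficient arrays and between -0.19 and -0.17 on the wild-type arrays, a shift of 0.42 where the median of all genes had 0.35.

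Over the 6 arrays the 10 genes shared much of their variation with wild type 5. It was the lowest array for 6 of the 10 genes (Notch3, Jag1, Dll4 and the 3 HEY genes), where it was the lowest for 32.7% of all genes. Wild type 2 or wild type 3 was the highest array for 8 of the 10, 4 each, where they were the highest for 16.2% and 15.1% of all genes. The exceptions were Hey1 and Hey2, both highest on eNOS-deficient 19. Without wild type 5 the eNOS-deficient arrays lay wholly below the wild-type arrays for 6 of the 10 genes (Notch3, Notch4, Jag1, Jag2, Dll4 and Heyl), where that held for 16.2% of all genes. In that comparison 9 of the 10 differences were negative, Hey1 being the exception, where 49.8% of all genes had a negative one. At an unadjusted p under 0.05, 4 of the 10 were then lower, Notch3, Notch4, Jag2 and Dll4 (5.93% of all genes), 0 were higher (8.93%), and still none passed the adjusted threshold.

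Since the endothelial markers varied between arrays, each gene was also expressed relative to the mean of 20 endothelial markers on its own array. On that scale the difference was -0.48 for Notch4, -0.40 for Jag2, -0.37 for Dll4, -0.25 for Notch3 and -0.23 for Notch1. It was 0.28 for Hey1, 0.13 for Heyl and 0.12 for Hey2, while Notch2 (0.012) and Jag1 (0.021) stood close to 0. Notch3 was then the gene whose groups did not overlap, at -0.91, -1.03 and -0.99 on the eNOS-deficient arrays, against -0.60, -0.75 and -0.85 on the wild-type arrays (exact permutation p = 0.1). That is 1 of 10 genes lower without overlap, where 1.01% of all genes were, and 0 of 10 higher, where 3.58% were. Notch4 and Jag2 overlapped on this scale, because eNOS-deficient 11, with 7.80 the lowest endothelial mean of its genotype, lay at -0.52 and -1.32, within the wild-type range of each. Wild type 5 was not left out on this scale. For Notch1 it lay at -0.0044, against -0.57 and -0.46 on wild type 2 and 3, which lay within the eNOS-deficient range. It was also the highest wild-type array for Jag2. For Dll4 and Hey1 wild type 5 itself lay within the eNOS-deficient range, while wild type 2 and 3 lay outside it.

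Relative to 15 smooth muscle markers, which were 0.48 log2 higher in eNOS-deficient aorta, all 10 genes had a negative difference, from -1.03 for Notch4 to -0.27 for Hey1. The groups did not overlap for 5 of the 10 (Notch1, Notch2, Notch4, Jag1 and Jag2), but the same held for 51.3% of all genes, so this count is near the background. Notch3, known from smooth muscle and lower without overlap relative to endothelial markers, overlapped here. Wild type 5 lay at -2.245 and eNOS-deficient 15 at -2.243. The smooth muscle list was written with earlier results of these data known. Of its 15 genes 14 had a positive difference, from 0.056 for Lmod1 to 1.05 for Npnt. The size and sign of a difference on this scale thus depend on which markers are listed. Myh11, which encodes smooth muscle myosin, did not share the direction of its list, with 10.18, 10.09 and 10.46 in eNOS-deficient aorta, against 10.87, 10.69 and 9.98 in wild type. The list also holds Des and Ldb3, which were highest on eNOS-deficient 11 (11.56 and 9.75) and wild type 5 (11.30 and 9.69). Those arrays also had the highest skeletal muscle means, 11.52 and 10.89. The part of skeletal muscle in the smooth muscle mean was not tested.

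**Figure D4:**
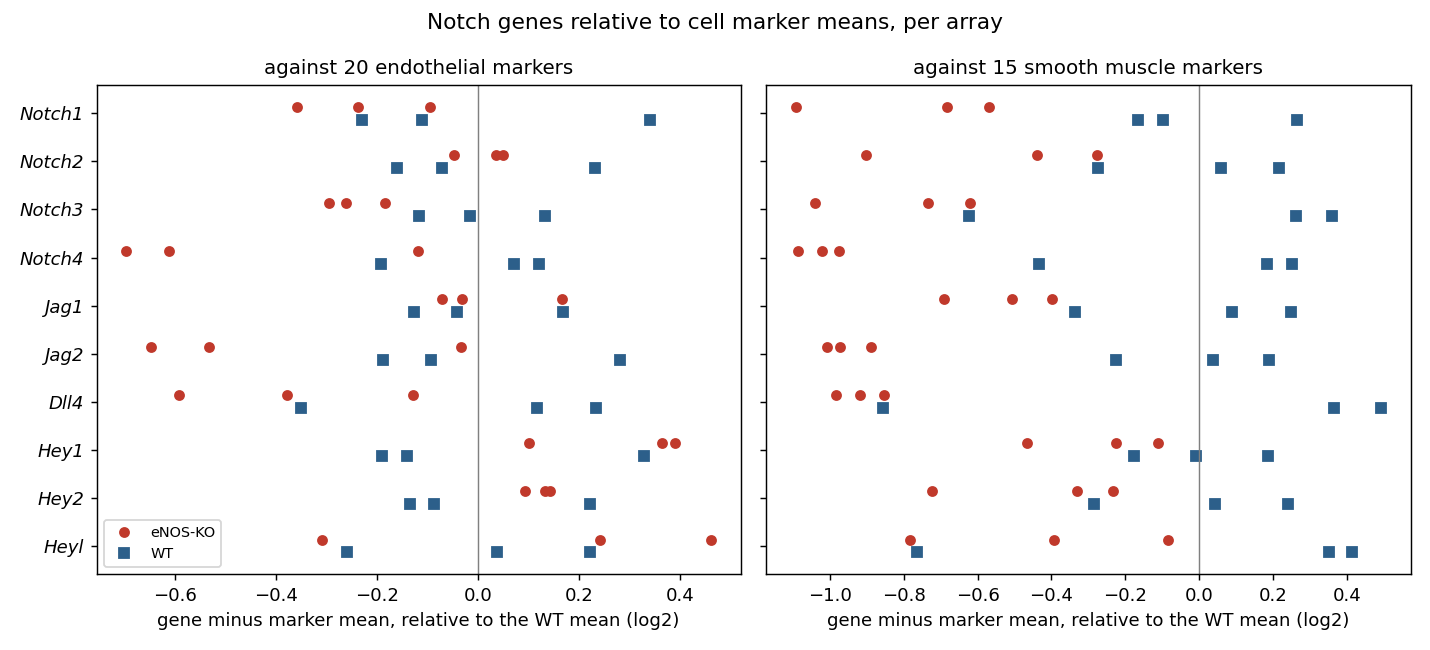
Each gene minus the mean of 20 endothelial markers (left) or 15 smooth muscle markers (right) on the same array, drawn relative to the wild-type mean of that value (horizontal axis, log2), for eNOS-deficient (red circles) and wild-type (blue squares) arrays. Against endothelial markers the 3 Notch3 values of eNOS-deficient aorta lie left of the wild-type values, and against smooth muscle markers all 10 genes shift left.

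Other genes of the pathway were taken from 6 lists by role, of 93 genes in all, of which 88 were tested. None passed the test over all genes (smallest limma adjusted p = 0.208). At an unadjusted p under 0.05, 8 of 88 were higher and 2 lower, where 7.86% and 3.72% of all genes were. Groups did not overlap for 15 higher and 1 lower, where 13.1% of all genes were higher and 6.47% lower in that way. Their median difference was 0.070.

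In the nuclear complex that Notch joins, 18 of 21 genes had a positive difference and 6 were higher without overlap (median 0.087). Of all genes 56.6% had a positive difference and 13.1% were higher without overlap. Rbpj, the DNA-binding partner of every Notch receptor, measured 8.41, 8.35 and 8.58 in eNOS-deficient aorta, against 7.81, 7.70 and 7.94 in wild type. All eNOS-deficient arrays lay above all wild-type arrays, and the difference was 0.63 (standard error 0.13, limma unadjusted p = 0.00139, adjusted p = 0.208), or 0.69 without wild type 5. That value is of the brightest probe set: averaged over the gene's probe sets it was 0.34 (unadjusted p = 0.0138 in limma). With smooth muscle markers as a covariate it was 0.31 (standard error 0.36, unadjusted p = 0.417 in limma). The mean of those markers did not overlap between the genotypes, so that fit can hardly separate it from genotype. Whether the probe set also reads processed copies of Rbpj was not tested. The co-activator gene Maml1 (0.25), the RBPJ-binding corepressor gene Cir1 (0.33) and Bend6 (0.39), which encodes a repressor of Notch targets, were next in that list by p, each without overlap.

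Among other Notch targets, Nrarp, a feedback inhibitor that Notch itself switches on, was the 1 gene of the 6 lists to lie wholly lower. It averaged 6.26 ± 0.27 in eNOS-deficient aorta, highest array 6.55, and 6.83 ± 0.18 in wild type, lowest array 6.65 (SD, n = 3 each). Its difference was -0.56 (standard error 0.17, limma unadjusted p = 0.0125, adjusted p = 0.317), or -0.65 without wild type 5. Hes6 was placed in the same list as a HES family gene, one that antagonises Hes1, and whether Notch controls it here was not tested. It measured 6.53, 6.39 and 6.41 in eNOS-deficient aorta, against 6.11, 6.04 and 6.03 in wild type. That is wholly higher, with a difference of 0.39 (limma adjusted p = 0.296). Pdgfrb, the platelet-derived growth factor receptor of mural cells and fibroblasts, differed by 0.51 without overlap. Cdkn1a, the cell cycle inhibitor p21, differed by 1.04, with wild type 5 at 9.13 inside the eNOS-deficient range of 8.85 to 9.97. Over the 21 other targets the median difference was 0.051.

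Among enzymes that modify the receptors' extracellular part, Poglut1, which adds O-glucose, differed by 0.32 and the xylosyltransferase Gxylt2 by 0.37, both without overlap, while the related Gxylt1 differed by -0.49 with overlap, or by -0.18 when its probe sets were averaged (unadjusted p = 0.283 in limma). Xxylt1, which extends the same sugar chain, differed by -0.13. The 9 genes of this list had a median of 0.079. Protease genes gave a median of 0.19 over 11, with 0 at an unadjusted p under 0.05 in limma and 0 past the adjusted threshold. The gamma-secretase subunit genes Aph1c, Psenen and Ncstn differed by 0.53, 0.30 and 0.19, the last without overlap, and Tspan14, a tetraspanin that guides ADAM10, by 0.22. Of 18 genes of endocytosis and turnover (median 0.079), Dtx4 and Dtx2, both of the Deltex family of ubiquitin ligases, were higher without overlap. Dtx4 measured 7.20, 7.57 and 7.38 in eNOS-deficient aorta, against 6.71, 6.50 and 6.80 in wild type (difference 0.71, limma unadjusted p = 0.0016, adjusted p = 0.215), and Dtx2 differed by 0.25. The Neuralized family genes Neurl1b and Neurl2 differed by -0.31 and -0.24. Of 8 further ligands (median -0.099), the microfibril gene Mfap5 differed by 0.65 without overlap, the endothelial gene Egfl7 by -0.58, Dll1 by -0.29 (-0.15 with its probe sets averaged) and Dlk1 by -0.17, those 3 with overlap.

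**Figure D5:**
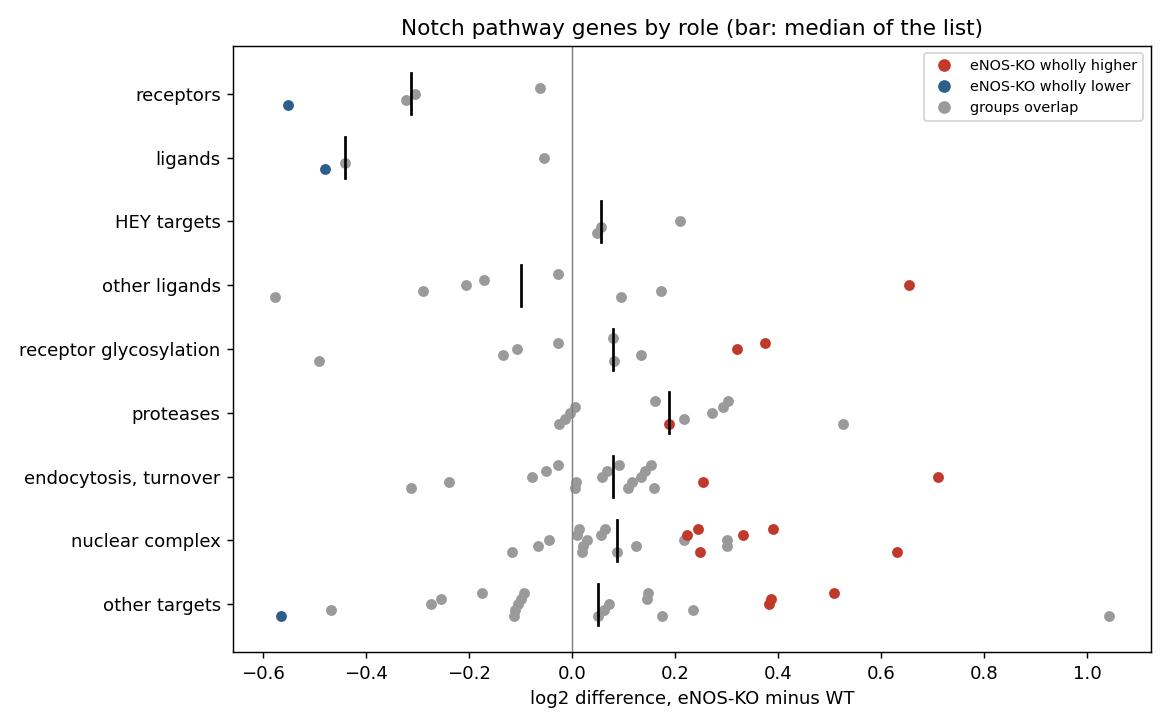
Log2 difference, eNOS-deficient minus wild type (horizontal axis), of each tested Notch pathway gene, in rows by role. Points are red where all eNOS-deficient arrays lay above all wild-type arrays, blue where all lay below and grey where groups overlapped, and a black bar marks each list's median, at -0.31 for the receptors, -0.44 for the 3 ligands and 0.056 for the HEY genes.

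For the 3 genes with the largest SD over the arrays, the genes of most similar pattern were those with the smallest root mean square distance over the 6 arrays, each gene's own mean subtracted. Dll4 was nearest to Robo4 (0.12 log2), Flt1 (0.12) and Adgrf5 (0.12), all of which encode receptors known from endothelium. Robo4 measured 6.61, 6.78 and 6.97 in eNOS-deficient aorta, against 7.59, 7.56 and 6.24 in wild type, so wild type 5 was again the lowest array and wild type 2 and 3 the highest. Heyl was nearest to Phka2, a phosphorylase kinase subunit gene (0.048), Farp1 (0.050) and the phosphatase gene Dusp1 (0.060). Notch4 was nearest to Ptcd3 (0.071), a mitochondrial ribosome gene, to the ephrin receptor gene Epha2 (0.086) and to the anion exchanger gene Slc4a3 (0.099). These distances describe 6 arrays and 18008 genes. Dll4, Heyl and the genes nearest to them share wild type 5 as their lowest array.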

How the data were processed

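The deposited series table holds log2 values of 41345 probe sets for 6 arrays, made with RMA in Affymetrix Expression Console 1.3.1 according to the submitters' processing notes (per the labels, 1 array a sample). These deposited values were analysed without further scaling. Names came from the platform annotation, in which 23525 probe sets had exactly 1 symbol, 1810 several and 16010 none, and 23328 were found by gene ID in the RefSeq table with 0 symbols changed. The brightest probe set by mean stood for each of 22184 genes. Genes with a mean under 4.38 log2, the 25th percentile of probe sets, were left out, which left 18008. Array medians ran from 5.55 to 5.59 on eNOS-deficient and from 5.61 to 5.68 on wild-type arrays, and at most 0.109% of values were identical in any pair. The number of arrays limits the precision: log2 differences had a standard error of 0.156 at the median.

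Genotypes were compared with limma (version 3.58.1, under R 4.3.3), using lmFit and eBayes, two-sided and with no covariates, and single values by exact permutation. On simulated data for this comparison over 18008 genes, the test recovered 8% of genes changed 1.5-fold, 58% of those changed 2-fold, 94% of those changed 4-fold and 100% of those changed 8-fold, and made 8 false calls. The simulated noise was normal, independent between genes and of equal SD in both groups, and no simulated array stood apart. Since wild type 5 and eNOS-deficient 11 do stand apart, these figures need not hold for the real arrays. The 10 genes and the lists were chosen with earlier results of these data known. Besides the 10 genes, the text names up to 4 genes per pathway list by smallest p and the nearest genes by pattern; single cell markers define their cell type, and the Y-linked list was written after the arrays had been seen. Alternatives covered the dim filter, an intensity trend, averaged probe sets, array weights, centring on the median, a second quantile normalization, marker lists as covariates and each array left out. Omission of both eNOS-deficient 11 and wild type 5, whose marker lists stood apart, was chosen after seeing the data. Python 3.11.15 with matplotlib 3.10.9 made the plots.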

Additional observations from a re-analysis of the deposited data

How the results depend on the processing

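No paired analysis was possible because the sample numbers in the titles are not shared between the genotypes. Over 17 alternatives none of the 10 genes passed the adjusted threshold, with Notch4 down to an adjusted p of 0.0595 and Jag2 to 0.0599, both with array weights, and up to 0.9999 with smooth muscle markers as a covariate. Notch1, Notch3, Notch4, Jag2 and Dll4 kept a negative difference in all 17. The others turned as follows. With median centring Notch2 was at 0.0022 and Jag1 at 0.011; with repeated quantile normalization Hey2 was at -0.019; with array weights Hey2 was at -0.027 and Heyl at -0.14. With smooth muscle markers as a covariate Notch2 was at 0.19, Hey1 at -0.023, Dll1 at 0.23, Gxylt1 at 0.037, Xxylt1 at 0.24, Neurl1b at 0.57, Neurl2 at 0.068 and Bend6 at -0.31. The mean of those markers did not overlap between the genotypes, so that fit can hardly separate it from genotype. The standard error of Notch4, for example, was 0.57 in that fit and 0.20 in the main one. With epithelium markers Hey2 was at -0.18 and Heyl at -0.52, and without eNOS-deficient 11 and wild type 5 together Heyl was at -0.37 and Xxylt1 at 0.055. Leaving out 1 array at a time gave -0.19 to 0.078 for Notch2, -0.21 to 0.028 for Jag1, -0.085 to 0.15 for Hey2 and -0.32 to 0.26 for Heyl. Among the other pathway genes it gave -0.98 to -0.34 for Egfl7, 0.32 to 0.70 for Aph1c, 0.15 to 0.46 for Psenen and 0.10 to 0.35 for Dtx2. The cause of these turns was not tested.

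Of the 10 genes, those lower at an unadjusted p under 0.05 numbered 2, but 1 with median centring, 3 with repeated quantile normalization, 5 with array weights, 0 with smooth muscle markers, 4 with epithelium markers, 4 without eNOS-deficient 11 and wild type 5, and 0 to 4 with 1 array left out: 0 without eNOS-deficient 15, 1 without wild type 2, 1 without wild type 3 and 4 without wild type 5. Of all genes 5 passed the adjusted threshold, against 3 with no dim filter, 2 with the mean of probe sets, 2 with repeated quantile normalization, 119 with array weights, 0 with smooth muscle markers (before adjustment 197 were higher and 187 lower), 2 with epithelium markers, 2 without eNOS-deficient 11 and wild type 5, and 0 to 6 with 1 array left out. Before adjustment 669 of all genes were lower, against 388 with median centring and 1047 with no dim filter. They numbered 484 with repeated quantile normalization, 1301 with array weights, 1094 with epithelium markers and 1117 without eNOS-deficient 11 and wild type 5. Leaving out 1 array gave 428 (eNOS-deficient 15), 559 (wild type 2), 725 (wild type 3) and 1067 (wild type 5). Genes higher before adjustment numbered 1415, against 2028 with median centring. Dtx4 passed with array weights (adjusted p = 0.0477).

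List medians changed most with covariates. With smooth muscle markers they were 0.046 for the other ligands, 0.39 for glycosylation, 0.48 for proteases and 0.20 for the nuclear complex. With epithelium markers they were 0.17 for the other ligands, -0.17 for glycosylation, -0.061 for proteases, -0.11 for endocytosis and turnover and -0.12 for the other targets. The other ligands stood at -0.20 with array weights and 0.15 without eNOS-deficient 11 and wild type 5, where endocytosis and turnover stood at -0.030. With 1 array left out the medians ran from -0.19 to 0.054 for the other ligands, -0.079 to 0.23 for glycosylation, 0.063 to 0.22 for proteases, -0.033 to 0.15 for endocytosis and turnover, 0.014 to 0.16 for the nuclear complex and -0.061 to 0.11 for the other targets.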
